A study of Homo sapiens with 4 samples.

Results

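Keratins, claudins and the genes of epithelial cell junctions were examined in K562 cells with and without the JAZF1-SUZ12 fusion. The members were named genes: 45 symbols were looked up in the count table, and all 45 were found among its 35606 genes. They comprise 13 keratins, 11 claudins, 3 other membrane proteins and 4 scaffold proteins of the tight junction, 7 desmosomal proteins, EPCAM and CRB3, and 5 regulators of the epithelial state. Of these, 27 had enough counts to be tested and 18 did not.

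Poly(A)-selected, directional RNA-seq was made from K562, an established human leukaemia line with erythroid features that carries the BCR-ABL fusion. There were 2 libraries from cells expressing JAZF1-SUZ12, a fusion protein known from endometrial stromal sarcoma, in which part of JAZF1 is joined to most of the Polycomb subunit SUZ12, and 2 from mock cells. The way the fusion was introduced, the content of the mock cells and whether a group holds 1 clone are not given in the sources used here. The labels do not say that the 2 libraries of a group came from separate cultures, so the p-values measure only the spread between these libraries, which may be technical.

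Epithelial cells are held together by junctions that other cells largely lack. Keratins are intermediate filament proteins that assemble as pairs of a type I and a type II chain, and desmosomes anchor these filaments at cell contacts through cadherins (DSG and DSC proteins), armadillo proteins (JUP and the plakophilins) and the linker desmoplakin (DSP). Claudins, occludin and F11R form the membrane part of the tight junction, and TJP and cingulin proteins link it to actin. The splicing factors ESRP1 and ESRP2 and the transcription factors GRHL1, GRHL2 and OVOL1 maintain the epithelial state, whereas ZEB, SNAI and TWIST factors repress it. Blood cells usually express few of these genes. SUZ12 belongs to Polycomb repressive complex 2, which silences many developmental genes at promoters rich in CG dinucleotides.

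The libraries held between 17260936 and 24423028 counts. Levels are given as CPM, the count per 1000000 counts of a library, with replicate 1 of a group first. A count of 0 in a library allows up to 3 counts, or between 0.123 and 0.174 CPM. JAZF1 rose from 0.927 ± 0.481 to 31.6 ± 2.35 CPM and SUZ12 from 134 ± 3.28 to 272 ± 4.19 CPM (n = 2 each, SD), with edgeR adjusted p-values of 1.07e-10 and 1.15e-09, as the labels state. The source label gives uterus, but all 12 erythroid markers were tested in these libraries and their summed level was between 11386 and 11742 CPM without the fusion and between 13366 and 13505 CPM with it. The epithelial cadherin CDH1 had between 5 and 9 counts in every library, and GRHL2 had at most 5.

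The promoters of 3 members that passed the test are shown first, because they are the called members for which RefSeq promoters were given. They are RefSeq sequences on GRCh38.p14, read 5′ to 3′ on the strand of the gene, and stretches that GENCODE 29 annotates as exon are left out. Distances are from the RefSeq start, which differs from the GENCODE 29 gene bounds given for each gene further on. Capitals mark each CG dinucleotide, a feature chosen after the values were seen. DSP lies at chr6:7541421-7541574 on the plus strand, from 250 to 97 bases before the start. CGNL1 lies at chr15:57376271-57376504 on the plus strand, from 234 bases to 1 base before the start; the GENCODE 29 gene begins further upstream, with another transcript. KRT10 lies at chr17:40822615-40822864 on the minus strand, from 250 bases to 1 base before the start.
DSP: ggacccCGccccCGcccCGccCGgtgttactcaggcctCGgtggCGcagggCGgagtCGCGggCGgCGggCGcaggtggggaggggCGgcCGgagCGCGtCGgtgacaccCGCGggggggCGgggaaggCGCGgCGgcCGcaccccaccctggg
CGNL1: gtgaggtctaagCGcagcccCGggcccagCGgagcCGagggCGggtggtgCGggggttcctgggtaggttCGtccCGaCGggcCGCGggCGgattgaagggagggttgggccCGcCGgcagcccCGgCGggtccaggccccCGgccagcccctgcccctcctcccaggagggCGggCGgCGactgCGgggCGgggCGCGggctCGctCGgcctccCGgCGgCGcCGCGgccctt
KRT10: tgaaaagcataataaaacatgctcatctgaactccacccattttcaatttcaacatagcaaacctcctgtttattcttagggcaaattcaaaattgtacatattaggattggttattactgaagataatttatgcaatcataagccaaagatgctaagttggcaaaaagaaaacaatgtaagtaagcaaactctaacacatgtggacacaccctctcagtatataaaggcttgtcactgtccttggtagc

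In the full 250 bases before the start, DSP and CGNL1 each held 33 CG dinucleotides and KRT10 held 0. The median over 35116 promoter windows was 11, at least 33 were found in 8.15% of them, and none in 6.06%. Over the 34 member windows the median was 19, and 8.82% of them held at least 33. The window of GRHL1, which was not called, held 45 and that of CGN, also not called, held 32. The E-box CAGGTG, searched on both strands (its reverse complement is CACCTG), is the site that ZEB and SNAI factors bind. It was found at 2 places in DSP, 1 of them in the stretch shown, and at none in CGNL1 or KRT10. Over the 25 members with an entry it was found in 32.4% of 34 windows, against 17.5% of all windows. The grainyhead core AACCGGTT, also searched on both strands, was in none of the member windows and in 0.117% of all windows. These matches describe letters and not binding. PKP2, KRT19 and EPCAM had no entry.

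Of the 27 members tested, 6 passed an adjusted p of 0.05 (edgeR quasi-likelihood test, adjusted over all 14750 genes tested), or 22.2%, against 24.7% of all genes tested. Higher were DSP, CGNL1, PKP2 and KRT19, and lower were KRT10 and EPCAM. The background was 13.3% higher and 11.4% lower. DSP and CGNL1 were at least 2-fold higher, as were 5.55% of all genes tested. The median log2 fold change of the tested members was 0.055, beside 0.0032 over all genes tested. In a bulk sample, a lower level in every cell and fewer cells that express a gene cannot be told apart.

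**Figure D1:**
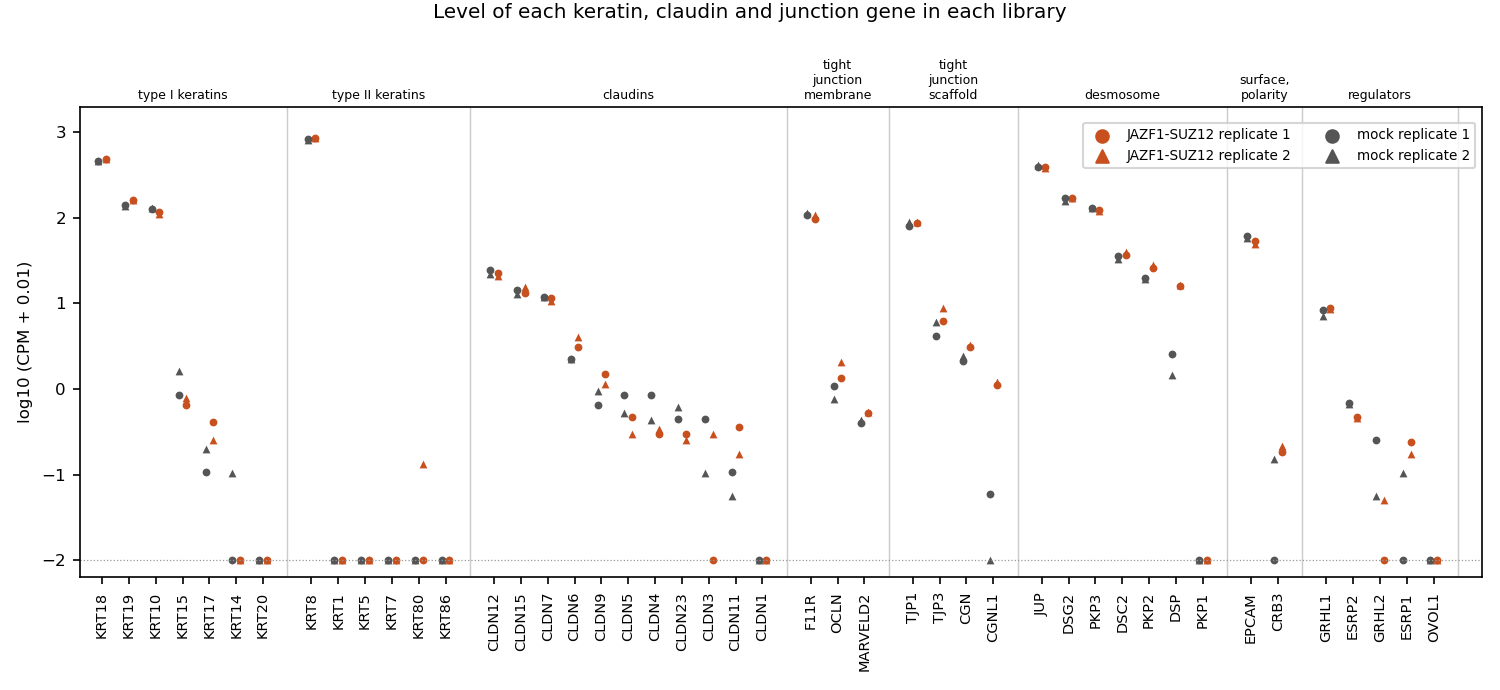
Level of each of the 45 members in each library, as log10 of CPM plus 0.01, grouped by role and ordered by the mock mean, with circles for replicate 1 and triangles for replicate 2 of mock (grey) and JAZF1-SUZ12 (orange). KRT8, KRT18 and JUP lie highest, 8 members lie on the dotted line at 0 counts in every library, and DSP and CGNL1 stand out as pairs of colours set well apart.

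Among the keratins, the pair of simple epithelia was the most abundant and was already present in mock cells. KRT8, the type II chain of simple epithelium, had 16847 and 17078 counts without the fusion and 14910 and 21091 with it, that is 824 and 802 CPM without the fusion and 864 and 864 CPM with it. KRT18, its type I partner, had 9426 and 9928 counts without the fusion and 8447 and 11728 with it, that is 461 and 466 CPM without the fusion and 489 and 480 CPM with it. In both genes the JAZF1-SUZ12 libraries lay above the mock libraries by a small margin that did not pass the test. The log2 fold change came to 0.066 for KRT8, with a 95% interval from -0.019 to 0.151 (adjusted p = 0.254, edgeR). For KRT18 it was 0.043, with an interval from -0.047 to 0.132 (adjusted p = 0.508, edgeR). KRT8 and KRT18 took between 82.6% and 83.0% of the counts of the 13 keratins in each library. Per kilobase of the longest GENCODE 29 transcript, the level of KRT8 was between 1.25 and 1.31 times that of KRT18 in the 4 libraries.

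The values of KRT8 and KRT18 carry a limit of counting. The 2 genes lie on opposite strands of chromosome 12 (KRT8 at 52897187 to 52949954, KRT18 at 52948871 to 52952901 on GRCh38) and their annotations overlap by 1.08 kilobases, and nothing states that strand was used. The table also lists 51 pseudogene copies of KRT8 and 67 of KRT18, among which reads can be divided. The summed counts of the copies came to between 0.939% and 1.33% of those of KRT8 and between 0.977% and 1.21% of those of KRT18.

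KRT19, a type I keratin without a fixed type II partner, rose. It had 2878 and 2901 counts without the fusion and 2753 and 3950 with it, or 138 ± 3.22 CPM against 161 ± 1.58 CPM (n = 2 each, SD). The groups did not overlap once depth was taken into account. The log2 fold change came to 0.19 ± 0.05 (standard error) (adjusted p = 0.00940, edgeR), a 1.14-fold difference. Without mock replicate 2 the adjusted p was 0.0931. KRT19 (ENSG00000171345) lies on chromosome 17 at 41523617 to 41528308, 1.09 kilobases from KRT15.

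KRT10, the type I keratin of differentiating epidermis, fell. It had 2594 and 2744 counts without the fusion and 2026 and 2722 with it, which is 128 ± 1.39 CPM against 114 ± 4.19 CPM (n = 2 each, SD). Both JAZF1-SUZ12 libraries were below both mock libraries in CPM. Its log2 fold change came to -0.18 ± 0.05 (standard error) (adjusted p = 0.0209, edgeR). The call was lost without JAZF1-SUZ12 replicate 2 (adjusted p = 0.180) and without mock replicate 2 (adjusted p = 0.0638). KRT10 (ENSG00000186395) lies on chromosome 17 at 40818117 to 40822595, minus strand. KRT1, the type II chain with which KRT10 pairs in epidermis, had 0 counts in every library.

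The other keratins were rare or absent. KRT15, of basal epidermis, was tested on 17 and 34 counts without the fusion and 11 and 19 counts with it (adjusted p = 0.281, edgeR). KRT17 had between 2 and 7 counts in a library, and KRT14 and KRT80 had at most 3. KRT1, KRT5, KRT7, KRT20 and KRT86 had 0 in every library. KRT5 and KRT14 are the pair of basal keratinocytes and KRT7 and KRT20 mark glandular and intestinal epithelium, and neither pair was detectable above a few counts. Near-identical neighbours make the zeros of KRT86 and KRT14 less certain, since reads can be divided with KRT81, KRT16 and KRT17. Among 27 further keratins, 4 were tested and 0 were called with edgeR, against 24.7% of all genes tested. At an unadjusted p under 0.05 there were 0, and DESeq2 and limma-voom also called 0. Of the 27, 17 had 0 counts in every library.

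Claudins, which set the permeability of the tight junction, gave no call among the 6 of 11 members that were tested (edgeR). The share over all genes tested was 24.7%, and 6 genes are too few to be set apart from it. At an unadjusted p under 0.05 there was 1, CLDN6, and DESeq2 and limma-voom called 0 of the 6. CLDN12, the most abundant, had 500 and 473 counts without the fusion and 389 and 510 with it, and the groups overlapped in CPM. CLDN15 (between 229 and 376 counts) and CLDN7 (between 197 and 259 counts) had log2 fold changes of 0.055 and -0.12 (adjusted p = 0.790 and 0.568, edgeR). CLDN6, an embryonic claudin, was at 2.25 and 2.25 CPM without the fusion and 3.13 and 4.05 CPM with it. Its log2 fold change came to 0.66 with a 95% interval from 0.080 to 1.24, and it did not pass after adjustment (adjusted p = 0.0920, edgeR). CLDN9 lies tail to tail with CLDN6 on chromosome 16, 0.207 kilobases away. CLDN9 was at 0.636 and 0.939 CPM in mock and 1.51 and 1.15 CPM in JAZF1-SUZ12 libraries, a log2 fold change of 0.71 (adjusted p = 0.301, edgeR). Neither the groups of CLDN6 nor those of CLDN9 overlapped, but nor did those of other uncalled members, such as KRT15 and CLDN7. The share of all genes tested without overlap was not computed.

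The remaining claudins were near the limit of counting. CLDN5, typical of endothelium, had 17 and 11 counts without the fusion and 8 and 7 with it (adjusted p = 0.339, edgeR). The 5 endothelial markers summed to 8.56 and 12.7 CPM in mock and 14.5 and 13.6 CPM in JAZF1-SUZ12 libraries, almost all of it PECAM1, with TEK at 0 in every library. CLDN3, CLDN4, CLDN11 and CLDN23 had at most 17 counts in a library and were not tested, and CLDN1 had 0. Of 12 further claudins none was tested, and their highest count in a library was 10.

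The membrane proteins of the tight junction beside the claudins were led by F11R, a junctional adhesion molecule that blood cells also carry. It was at 108 and 114 CPM without the fusion and 97.9 and 106 CPM with it. Its log2 fold change came to -0.14 (adjusted p = 0.0814, edgeR), and it passed without JAZF1-SUZ12 replicate 2 (adjusted p = 0.0412). The authors' deposited table gives F11R a larger difference, a log2 fold change of -0.37 with an adjusted p of 0.0138. Occludin (OCLN) had 22 and 16 counts without the fusion and 23 and 50 with it (adjusted p = 0.157, edgeR), and MARVELD2, its tricellular relative, had between 8 and 13 counts (adjusted p = 0.736).

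Of the tight junction scaffold proteins, CGNL1 alone passed the test. CGNL1, or paracingulin, binds actin regulators at tight and adherens junctions. It had 1 and 0 counts without the fusion and 19 and 29 counts with it, so it was close to undetected in mock and low but present with the fusion. Only through the JAZF1-SUZ12 libraries did it have enough counts to be tested. The ratio of the pooled levels was 48.1, with a 95% counting interval from 8.22 to 1938 (adjusted p = 0.000652, edgeR). All 10 alternatives that could be run kept the call. The fitted log2 fold change, 5.25, rests on 1 count in the mock libraries. It became 7.59 with mock replicate 1 left out and 4.36 with mock replicate 2 left out. The authors' deposited table lists CGNL1 at a log2 fold change of 3.16 and does not call it (adjusted p = 0.377). CGNL1 (ENSG00000128849) lies on chromosome 15 at 57375967 to 57550727, plus strand.

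Its relative cingulin (CGN) had 43 and 52 counts without the fusion and 53 and 79 with it, a log2 fold change of 0.45 with an interval from -0.14 to 1.05 (adjusted p = 0.269, edgeR). TJP1 (ZO-1), the abundant scaffold that other cell types share, was at 80.7 and 88.4 CPM in mock and 87.02 and 90.5 CPM in JAZF1-SUZ12 libraries, and the groups overlapped. TJP3 (ZO-3), found mainly in epithelia, was at 4.21 and 6.10 CPM in mock and 6.20 and 8.72 CPM in JAZF1-SUZ12 libraries. The log2 fold change of TJP3 was 0.52 (adjusted p = 0.0901, edgeR), and it passed with no filter (adjusted p = 0.0382), without JAZF1-SUZ12 replicate 1 (adjusted p = 0.00793) and without mock replicate 2 (adjusted p = 0.0117).

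DSP had the smallest p-value of all members. Desmoplakin ties the desmosomal plaque to intermediate filaments. Its counts were 52 and 31 without the fusion and 274 and 396 with it, or 2.54 and 1.46 CPM against 15.9 and 16.2 CPM. Both libraries with the fusion lay far above both without it. The log2 fold change came to 2.99 ± 0.20 (standard error) (adjusted p = 5.50e-08, edgeR), a 7.92-fold difference. It ranged from 2.62 without mock replicate 2 to 3.43 without mock replicate 1. The authors' deposited table also calls DSP, with a log2 fold change of 2.67 and an adjusted p of 1.08e-13. DSP (ENSG00000096696) lies on chromosome 6 at 7541575 to 7586717, plus strand.

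PKP2, the plakophilin of heart and simple epithelia, which recruits desmoplakin to the plaque, rose as well. It had 410 and 413 counts without the fusion and 446 and 690 with it, or 19.7 ± 0.468 CPM against 27.0 ± 1.71 CPM (n = 2 each, SD). In CPM the groups did not overlap. The log2 fold change came to 0.44 ± 0.09 (standard error) (adjusted p = 0.00212, edgeR), a 1.35-fold difference. It passed in all 11 alternatives, whereas the authors' deposited table gives an adjusted p of 0.0727. PKP2 (ENSG00000057294) lies on chromosome 12 at 32790745 to 32896840, minus strand.

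The other parts of the desmosome were present in mock cells, several at high levels. Plakoglobin (JUP), which desmosomes share with adherens junctions, had 8120 and 8915 counts without the fusion and 6742 and 9329 with it, that is 397 and 419 CPM without the fusion and 391 and 382 CPM with it. The desmosomal cadherin DSG2 had 3452 and 3335 counts without the fusion and 2911 and 4123 with it, that is 169 and 157 CPM without the fusion and 169 and 169 CPM with it. PKP3 had 2672 and 2780 counts without the fusion and 2109 and 2944 with it, that is 131 and 131 CPM without the fusion and 122 and 121 CPM with it. JUP, DSG2 and PKP3 had log2 fold changes of -0.10, 0.031 and -0.13 and none passed (adjusted p = 0.122, 0.711 and 0.0803, edgeR). DSC2, the partner cadherin of DSG2, had between 630 and 974 counts (adjusted p = 0.258), and PKP1, the plakophilin of stratified epidermis, had 0 counts in every library. Per kilobase of the longest transcript, the level of DSP was 0.0023 and 0.0012 of that of JUP without the fusion and 0.0145 and 0.0152 with it. DSP had the lowest level per kilobase of the 6 desmosomal genes detected, in both groups. The summed level of the 7 desmosomal genes was between 755 and 760 CPM in every library.

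**Figure D2:**
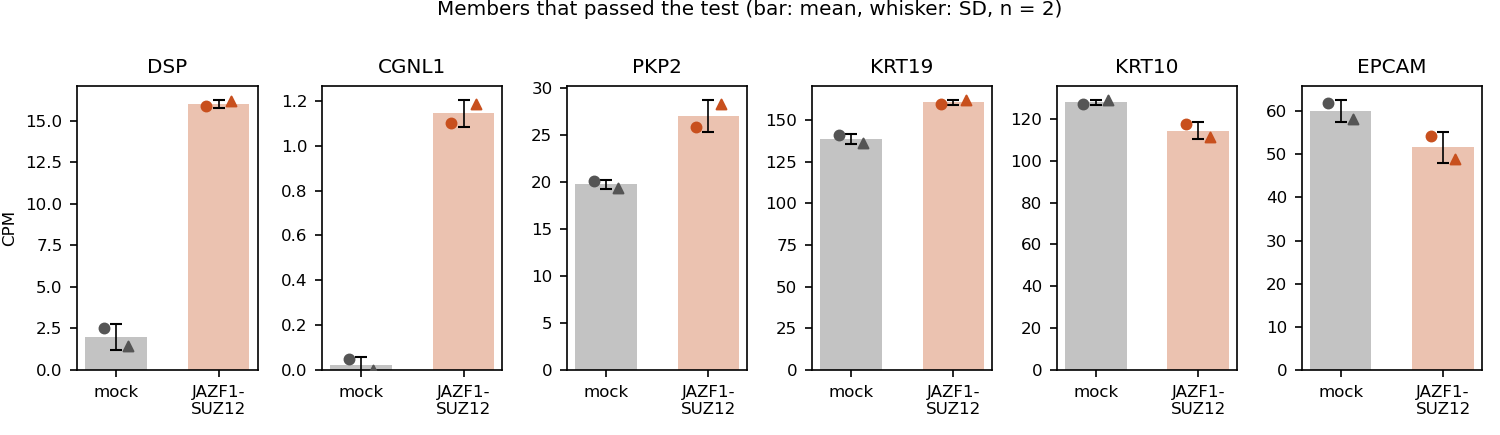
CPM of the 6 members that passed the test, in panels with their own axes from 0, with bars for the mean, whiskers for the SD (n = 2) and points for single libraries (circle, replicate 1; triangle, replicate 2). The panels of DSP, at 15.9 and 16.2 CPM with the fusion, and of CGNL1 show bars far above those without it, whereas the bars of PKP2, KRT19, KRT10 and EPCAM differ by smaller steps.

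Desmoplakin and PKP2 are also parts of the heart's intercalated disc, so 8 cardiac markers were read beside them. Of these, 3 had enough counts to be tested, MYH6 only through the JAZF1-SUZ12 libraries. MYH6 and TNNI3 rose, with log2 fold changes of 4.45 and 0.30 (adjusted p = 1.71e-08 and 0.00177, edgeR), and RYR2 did not pass (adjusted p = 0.0573). The cardiac master regulator NKX2-5 had 0 counts in every library. The summed level of the 8 markers was 63.0 and 60.5 CPM in mock and 86.8 and 87.9 CPM in JAZF1-SUZ12 libraries. The 7 stromal markers summed to 9.98 and 9.86 CPM in mock and 24.6 and 26.9 CPM in JAZF1-SUZ12 libraries, with COL1A1 called higher, LUM at 0 and COL3A1 at no more than 3 counts. The part of such cells in the results was not tested.

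EPCAM, an epithelial adhesion molecule that erythroid progenitors can also carry, fell. It had 1266 and 1239 counts without the fusion and 935 and 1197 with it, or 60.1 ± 2.65 CPM against 51.6 ± 3.65 CPM (n = 2 each, SD). Both JAZF1-SUZ12 libraries were below both mock libraries in CPM. The log2 fold change came to -0.25 ± 0.07 (standard error) (adjusted p = 0.0175, edgeR). The call was lost with DESeq2 (adjusted p = 0.0698), without JAZF1-SUZ12 replicate 2 (adjusted p = 0.218, edgeR) and without mock replicate 1 (adjusted p = 0.0879, edgeR). EPCAM (ENSG00000119888) lies on chromosome 2 at 47345158 to 47387601, plus strand. CRB3, an apical polarity protein, had between 0 and 5 counts.

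The regulators of the epithelial state were low in both groups. GRHL1, a grainyhead factor, was at 8.36 and 7.09 CPM in mock and 8.75 and 8.52 CPM in JAZF1-SUZ12 libraries (adjusted p = 0.582, edgeR). ESRP2 had 14 and 14 counts without the fusion and 8 and 11 with it (adjusted p = 0.523, edgeR). ESRP1 had 0 and 2 counts without the fusion and 4 and 4 with it, GRHL2 had 5 and 1 against 0 and 1, and OVOL1 had 0 in every library. The 18 untested members together had between 30 and 44 counts in a library, and the highest count of any of them was 17.

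**Figure D3:**
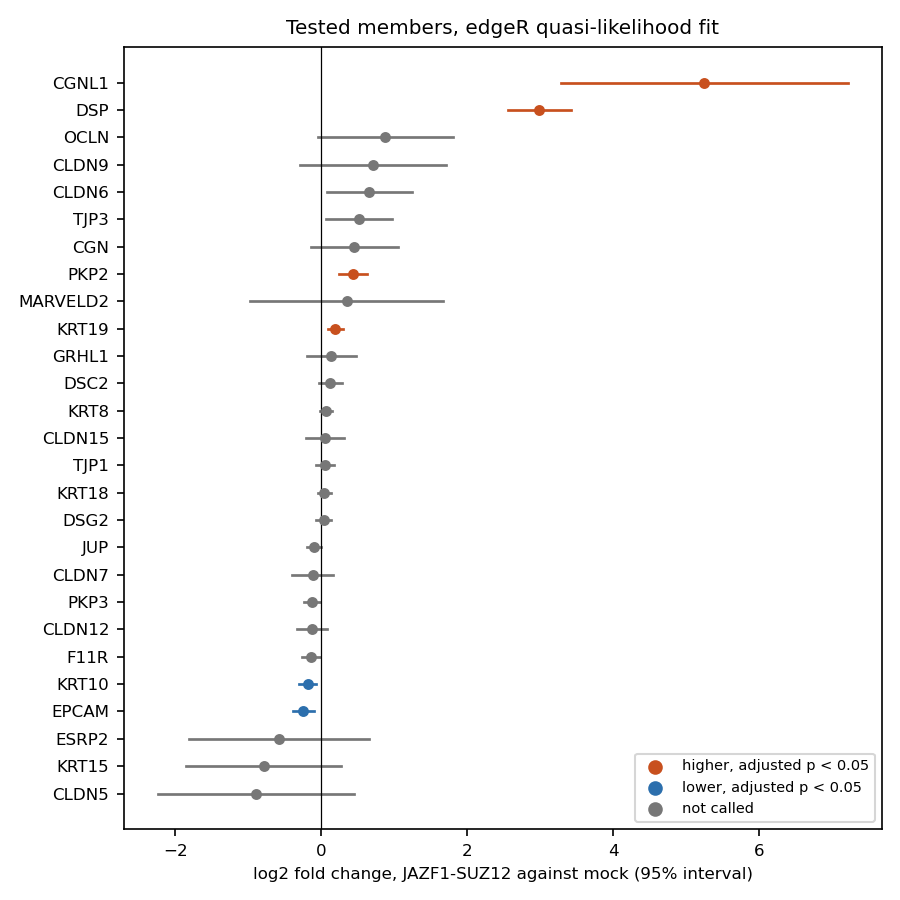
Log2 fold change with the fusion against without it for the 27 tested members, with 95% intervals from the edgeR fit, ordered by size and coloured by outcome. CGNL1 at 5.25 and DSP at 2.99 stand apart on the right, and the other 25 lie between -0.89 and 0.88.

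Junction genes that are not members were read from a second list. It holds 31 genes, of which 22 were tested and 8 were called higher, none lower (also 0 lower at an unadjusted p under 0.05, and 0 with DESeq2 and limma-voom), or 36.4% of those tested against 24.7% of all genes. The median log2 fold change came to 0.21. This list was chosen with earlier results of these data known, so its share is a description and not a test. Periplakin (PPL), a plakin of the desmosome and cornified envelope related to desmoplakin, had 17 and 14 counts without the fusion and 62 and 137 with it, a log2 fold change of 2.61 (adjusted p = 4.46e-05, edgeR). PERP, a desmosomal membrane protein and p53 target, rose from 2.01 and 2.35 to 7.24 and 8.43 CPM (adjusted p = 1.69e-05, edgeR). The adhesion molecule NECTIN1 rose from 11 and 31 counts to 101 and 136 counts, with a log2 fold change of 2.48 (adjusted p = 6.87e-05, edgeR) that became 3.36 without mock replicate 2. PARD3, a polarity scaffold, rose by 0.42 on the log2 scale (adjusted p = 0.000544, edgeR). AFDN, CTNND1 and CXADR were also called higher and are outside the 5 with the smallest p-values. CTNND1 lost its call with DESeq2 (adjusted p = 0.0882) and without mock replicate 1 (adjusted p = 0.0557, edgeR), and CXADR without JAZF1-SUZ12 replicate 1, JAZF1-SUZ12 replicate 2 or mock replicate 2 (edgeR, adjusted p from 0.0557 to 0.0662). CDH1, the cadherin that defines epithelia, had too few counts to be tested.

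Further epithelial genes moved in both directions. Of 20 listed, 11 were tested, with 5 called higher and 1 lower, or 54.5% against 24.7% of all genes tested, and a median log2 fold change of 0.89. DESeq2 called 3 higher and 1 lower. OVOL2, EHF and ELF3 had enough counts to be tested only through the JAZF1-SUZ12 libraries, so their testing and their direction are not independent. The list was chosen with earlier results of these data known, so its share describes it and is not a test. OVOL2, a repressor of mesenchymal genes, had 0 and 0 counts without the fusion and 11 and 18 with it, at least 4.78-fold higher against a floor of 3 counts in each mock library (adjusted p = 0.00238, edgeR). The ETS factor ELF3 had 22 and 4 counts without the fusion and 43 and 72 with it. Its log2 fold change came to 2.09 (adjusted p = 0.00673, edgeR), and it moved to 3.79 when mock replicate 1 was left out and to 1.31 when mock replicate 2 was left out. A second ETS factor, EHF, had 3 and 5 counts without the fusion and 22 and 26 with it (adjusted p = 0.00707, edgeR), and the call was lost without JAZF1-SUZ12 replicate 1 (adjusted p = 0.0571) and without mock replicate 1 (adjusted p = 0.0641). The membrane protease PRSS8 rose by 0.92 on the log2 scale (adjusted p = 0.0146, edgeR), with a DESeq2 adjusted p of 0.0540 and 0.0988 (edgeR) without mock replicate 2. LSR, the tricellular junction protein lipolysis-stimulated receptor, fell by 0.22 (adjusted p = 0.0162, edgeR), and this was lost without JAZF1-SUZ12 replicate 2 (adjusted p = 0.187) and without mock replicate 2 (adjusted p = 0.0591). KLF5, the fifth gene called higher, is outside the 5 with the smallest p-values, and its call was lost with DESeq2 (adjusted p = 0.122) and without any 1 of the 4 libraries (edgeR, adjusted p from 0.0583 to 0.136). RAB25, MAL2 and TP63 had at most 3 counts in every library.

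**Figure D4:**
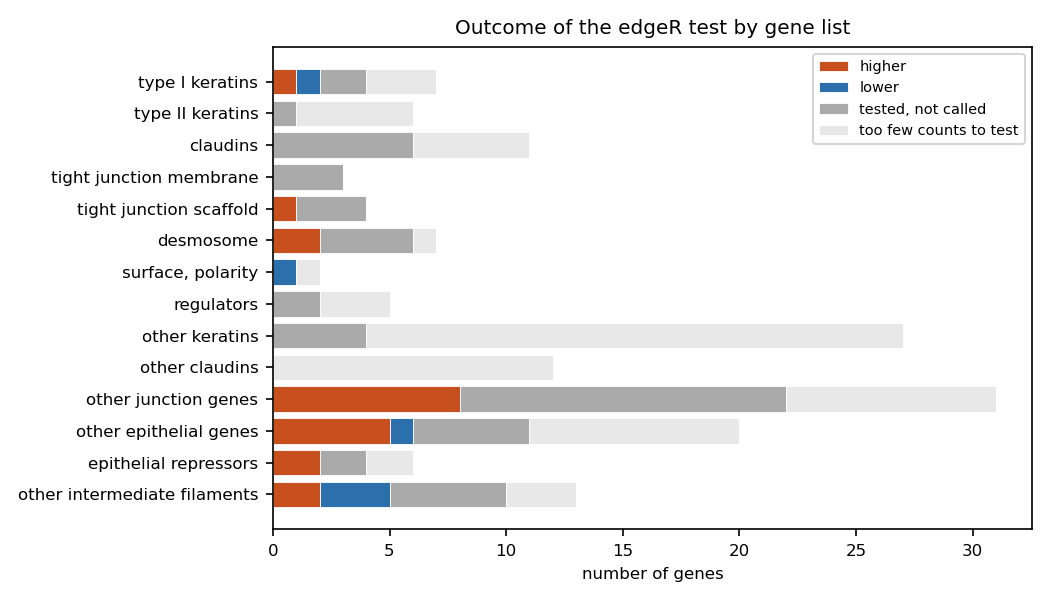
Number of genes in each list by outcome of the edgeR test: higher (orange), lower (blue), tested and not called (grey) or with too few counts to test (light grey). Of the lists of members, the desmosome has 2 genes higher and the claudins none, and the 31 other junction genes have 8 higher. Of all genes tested, 13.3% were called higher.

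The repressors of the epithelial state were present together with these genes. ZEB2 was at 135 and 148 CPM without the fusion and 139 and 139 CPM with it (adjusted p = 0.562, edgeR). ZEB1 rose by 0.30 on the log2 scale (adjusted p = 0.0421, edgeR), a call kept by 5 of 11 alternatives. It was lost with DESeq2 (adjusted p = 0.203), with no filter (adjusted p = 0.0551, edgeR) and without any 1 of the 4 libraries (edgeR, adjusted p from 0.0596 to 0.185). TWIST1 had 3 and 1 counts without the fusion and 17 and 25 with it, a log2 fold change of 3.29 (adjusted p = 0.00424, edgeR). It moved to 4.23 without mock replicate 1. Leaving out mock replicate 2 gave 2.70 (adjusted p = 0.0520). TWIST1, like OVOL2, EHF and ELF3, had enough counts to be tested only through the JAZF1-SUZ12 libraries. SNAI1 did not pass (adjusted p = 0.512, edgeR), and SNAI2 and TWIST2 had at most 1 count in a library.

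In the authors' deposited table, 29 members have an adjusted p-value and 2 of them, DSP and F11R, are below 0.05, against 8.5% of all genes with one. DSP was the member called both there and in the present fit. Outside the members, the deposited table does not call CXADR, EHF, KLF5, PRSS8, LSR, ZEB1, TWIST1, DES, VIM or TNNI3, all called here. Their adjusted p-values there run from 0.0627 for DES to 0.910 for ZEB1. The deposited table does call PPL, PERP, NECTIN1, PARD3, AFDN, CTNND1, ELF3, OVOL2, NEFH, LMNB1, LMNB2, MYH6 and COL1A1.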

How the data were processed

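RNA-seq of 2 JAZF1-SUZ12 and 2 mock K562 libraries was read from a gene table of estimated counts that the authors deposited as raw counts. Of its values, between 29.9% and 33.6% in a library are not whole within 0.000001, so they were rounded. The submitters' processing notes name fastp 0.20.1, kallisto 0.46.2, DESeq2 1.30.1 and the build hg38, with no roles; the annotation and any use of strand are not given in the sources used here. A second deposited table holds the authors' comparison, per the file headers: a mean normalized signal, a log2 fold change with its standard error, a test score, and p-values with adjusted p-values.

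Genes passing edgeR's filterByExpr (14750) were scaled with TMM and tested with edgeR 4.0.16's quasi-likelihood F test in R 4.3.3, two-sided, group only, Benjamini-Hochberg over all genes, threshold 0.05. Whole-number counts had been assumed in the design. CPM is the rounded count per 1000000 counts of the library; 95% counting intervals are exact binomial and, like floors, cover counting error only. Positions and transcript lengths are from GENCODE 29 (GRCh38). In simulated data edgeR recovered 200 of 200 genes changed 2-fold among 14682 tested, with 10 false calls. The changed genes were drawn only from genes above a mean count that several tested members do not reach. Every simulated gene had the same dispersion. The simulation therefore does not show whether a 2-fold change in members with low counts would be found. Alternatives were other scalings, DESeq2 1.42.0, limma-voom (limma 3.58.1), other filters, stricter thresholds, the replicate block and leaving out each library.

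Every member is accounted for; called members are given in full, uncalled ones by counts, and other lists by up to 5 calls with the smallest p. The members and lists were chosen with earlier results of these data known. Single values of some listed genes are not reported here.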

Additional observations from a re-analysis of the deposited data

How the results depend on the processing

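Over the 11 alternatives DSP and PKP2 kept direction and call, as did CGNL1 over the 10 in which it could be tested; KRT19, KRT10 and EPCAM kept direction, and their call in 10, 9 and 8 of 11. DESeq2 called 2407 genes in place of 3643. A threshold of 0.01 left 2045 genes and a 2-fold change also required left 837, and the 6 members called became 2 with that requirement; the thresholds lower these numbers by construction, and for DESeq2, which called 5 members, the cause was not tested. With total counts only, the share of calls that were higher moved from 53.7% to 60.5% and the members' median log2 fold change from 0.055 to 0.078, while that of all genes moved from 0.0032 to 0.026. The fit with a replicate block called 4061 genes and 8 members, F11R and TJP3 being added (adjusted p = 0.0474 and 0.0388). Same-numbered libraries did not deviate together over all genes (correlation -0.00072 over 14750 genes). This cannot exclude a shared culture or batch that affects some genes, and the labels give these libraries only a shared number. Fits that leave out 1 library assume that the lone library of a group varies like the other group. They called between 2568 and 3782 genes and between 5 and 8 members, and the members' median ranged from 0.024 to 0.076. Across these fits some uncalled members changed sign: CLDN15 ranged from -0.049 to 0.14, TJP1 from -0.024 to 0.11 and DSG2 from -0.033 to 0.076. Low counts limit OCLN, MARVELD2, CLDN5, CLDN6, CLDN9, KRT15, CGN, ESRP2 and the called CGNL1, whose 95% intervals span more than a 2-fold change. They also limit the 18 untested members.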

Other observations

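Intermediate filament genes other than keratins were also read, from a list likewise chosen with earlier results of these data known. In a list of 13 other filament genes, 10 were tested, and 2 were called higher and 3 lower, or 50% against 24.7% of all genes tested (13.3% higher and 11.4% lower). Desmin (DES), the filament of muscle that also anchors at desmosomes, rose from 26.7 ± 0.0943 to 36.5 ± 0.326 CPM (n = 2 each, SD), a log2 fold change of 0.43 (adjusted p = 0.000661, edgeR). Vimentin (VIM), the filament of mesenchymal and blood cells, was at 443 and 462 CPM without the fusion and 510 and 503 CPM with it (adjusted p = 0.0244, edgeR), and the call was lost without JAZF1-SUZ12 replicate 1 (adjusted p = 0.0641) and without mock replicate 1 (adjusted p = 0.229). The neurofilament gene NEFH fell by 0.63 on the log2 scale, and the nuclear lamins LMNB1 and LMNB2 fell by 0.41 and 0.20 (adjusted p = 0.000349, 1.38e-05 and 0.00484, edgeR). The neuronal filament genes NEFL, NEFM and INA had 0 counts in every library.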
